A study of Mus musculus with 6 samples.

Results

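The carboxylesterases are the subject here: 10 genes, Ces1c, Ces1d, Ces1e, Ces1f and Ces1g of the Ces1 subfamily and Ces2a, Ces2b, Ces2c, Ces2e and Ces2g of the Ces2 subfamily, out of 19616 genes in the deposited table and out of 16 carboxylesterase genes in it. They were picked by name with the result of the control against mutant contrast known, so they were selected on the same contrast that is described below. Their levels and changes are therefore given as a description, with no p-value for any of the 10. RNA was sequenced from EDTA-enriched jejunal intestinal epithelial cells (IEC) of 3 control mice (C1, C3 and C3-3, genotype wildtype) and 3 mice of genotype villin-Cre Hdac1-/-; Hdac2-/- (H1, H5 and H9), all aged 3 months and each giving 1 library. Villin-Cre acts in the intestinal epithelium, so any other cell in an EDTA preparation keeps both histone deacetylases. The mice were of mixed C57BL/6J, 129SV and CD1 background.

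Carboxylesterases are serine hydrolases that cut ester, amide and thioester bonds in drugs, pesticides and lipids. Many are held in the lumen of the endoplasmic reticulum (ER) by a short signal at their carboxyl end, whereas Ces1c is released into mouse plasma. Ces2 enzymes are the main drug-hydrolysing carboxylesterases of the small intestine, where they also act on acylglycerols, and several Ces1 enzymes hydrolyse stored triacylglycerol and cholesteryl ester in liver and fat.

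The genes form 2 tandem arrays on chromosome 8. In GENCODE M21 (build GRCm38) the Ces1 array covers chr8:93020214-93535830 and the Ces2 array chr8:104734003-105150109, with 0 protein-coding genes of another family inside either one. On the minus strand lie Ces1c (ENSMUSG00000057400, chr8:93099015-93131283), Ces1d (ENSMUSG00000056973, chr8:93166068-93197838), Ces1e (ENSMUSG00000061959, chr8:93201218-93229619), Ces1f (ENSMUSG00000031725, chr8:93256236-93279747) and Ces1g (ENSMUSG00000057074, chr8:93302369-93337308). On the plus strand lie Ces2a (ENSMUSG00000055730, chr8:104734003-104741634), Ces2b (ENSMUSG00000050097, chr8:104831572-104840093), Ces2c (ENSMUSG00000061825, chr8:104847068-104854483), Ces2e (ENSMUSG00000031886, chr8:104926260-104934672) and Ces2g (ENSMUSG00000031877, chr8:104961718-104969537).

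The coding sequences are alike around the active site, and this stretch is shown because it holds the catalytic serine codon in all 10. Each line gives 39 bases of the GENCODE M21 coding sequence, 5′ to 3′, with the 5 codons around the catalytic serine in capitals (the third of the 5 is the serine codon).
Ces1c: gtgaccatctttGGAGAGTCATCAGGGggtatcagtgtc
Ces1d: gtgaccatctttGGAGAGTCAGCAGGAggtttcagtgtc
Ces1e: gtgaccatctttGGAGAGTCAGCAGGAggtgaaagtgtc
Ces1f: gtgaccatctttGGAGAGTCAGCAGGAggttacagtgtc
Ces1g: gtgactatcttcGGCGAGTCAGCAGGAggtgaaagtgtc
Ces2a: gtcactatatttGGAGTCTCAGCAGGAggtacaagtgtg
Ces2b: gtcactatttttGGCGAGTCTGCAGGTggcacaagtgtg
Ces2c: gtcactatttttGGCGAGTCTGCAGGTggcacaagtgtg
Ces2e: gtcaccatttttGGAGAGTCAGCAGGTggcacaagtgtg
Ces2g: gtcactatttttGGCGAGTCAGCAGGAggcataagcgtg
All 10 coding sequences held the glycine-X-serine-X-glycine codon pattern exactly 1 time, with the serine at codon 221 in Ces1d, Ces1f and Ces1g and at codon 228 in Ces2e. The codons of a C-terminal ER retrieval signal (histidine, any residue, glutamate, leucine) closed the coding sequence of 9 of the 10, all but Ces1c. Identity over the whole coding sequence ranged from 72.4% to 81.6% within the Ces1 members and from 81.3% to 91.3% within the Ces2 members, and from 55.3% to 58.4% between the subfamilies. The closest pair of members was Ces2b and Ces2c, at 91.3%.

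Likeness to other genes limits how well a read can be placed. Of all 100-base windows of the annotated transcripts of Ces2c, 13.6% occurred letter for letter in another gene, nearly all in Ces2d-ps, and 8.13% of those of Ces2a occurred in the pseudogene Gm7208. The share was 1.03% for Ces1c, which shared windows with Ces1b, and 0.0881% for Ces2b. Ces1d, Ces1e, Ces1f, Ces1g, Ces2e and Ces2g had 0 shared windows of this length. At 50 bases the shares rose to 36.1% for Ces2c, 17.3% for Ces2a and 13.0% for Ces1c, and ranged from 0.903% to 9.66% in the other 7. Counts of Ces2c, Ces2a and Ces1c are thus the least certain of the 10.

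The deposited total count was between 36111035 and 65902344 per mouse, and H5 was the smallest library. Levels are given as counts-per-million (CPM) after TMM scaling. Hdac1 was 34.5 to 48.8 CPM in controls and 2.53 to 4.81 CPM in mutants, whereas Hdac2 was 23.6 to 32.8 CPM in controls and 21.4 to 26.6 CPM in mutants. A count over the whole Hdac2 gene cannot show the loss of part of it, so only Hdac1 checks the labels here. Control C3 was the only library with Y-linked transcripts, 3082 counts over 4 genes against at most 13 elsewhere, and had 13 Xist counts against 2413 to 6883. Markers of villus enterocytes did not all move the same way. The summed level of 14 genes was 87630 to 103800 CPM in controls and 35070 to 47500 CPM in mutants. Of the 14, 7 were called lower and 1 higher, against 12.7% and 12.4% of all genes tested. Apoa4, the most abundant in controls, went from a mean of 38380 CPM to 6281 CPM. Alpi was the one called higher, from 1505 CPM to 3466 CPM. Sis, Apoa1, Fabp1, Nt5e, Anpep and Vil1 were not called. The 6 hepatocyte markers summed to 6.15 to 9.30 CPM in controls and 13.1 to 35.4 CPM in mutants. Of these, Alb (0.216 to 0.997 CPM over all mice), Hpd and Cyp2e1 (0 counts in all 3 mutants) were called lower, Tat (1.15 to 12.9 CPM in mutants) and Hpx (7.04 to 14.8 CPM in mutants) were called higher, and Serpina1c was not called. The 5 pancreatic acinar markers summed to 0.181 to 2.32 CPM in controls and 2.91 to 9.38 CPM in mutants. Among them Ctrb1, at 0.136 to 0.756 CPM in controls and 2.87 to 6.75 CPM in mutants, was called higher, and Cpa1, Cel, Pnlip and Cela3b overlapped between groups. In bulk RNA, fewer cells of a type and less RNA per cell cannot be told apart, and the part of these differences in the carboxylesterase levels was not tested.

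With Hdac1 and Hdac2 deleted, the 10 carboxylesterase transcripts had lower means than in controls, by 1.84 times for Ces1c to 107 times for Ces1g. Over the 10 genes the summed level was 3108 CPM in C1, 4142 CPM in C3 and 3924 CPM in C3-3, against 1033 CPM in H1, 1130 CPM in H5 and 1504 CPM in H9. The controls thus averaged 3725 ± 545 CPM and the mutants 1223 ± 248.8 CPM (SD, n = 3 each), a ratio of 3.05. The Ces1 members had the larger ratio, from 537 ± 95.5 CPM to 27.5 ± 4.34 CPM (19.6 times lower), while the Ces2 members went from 3187 ± 465 CPM to 1195 ± 245 CPM (2.67 times lower). Calls needed a 2-fold change or more together with a Benjamini-Hochberg adjusted p of 0.05 or less in edgeR's quasi-likelihood test. By that rule 9 of the 10 were called lower, where 12.7% of the 15618 genes tested were, and 0 were called higher, where 12.4% were. Every mutant lay below every control for all 10, which held for 26.6% of genes tested. The median log2 fold change was -3.52 over the 10 and -0.01 over all genes tested. These counts follow from how the genes were selected.

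**Figure D1:**
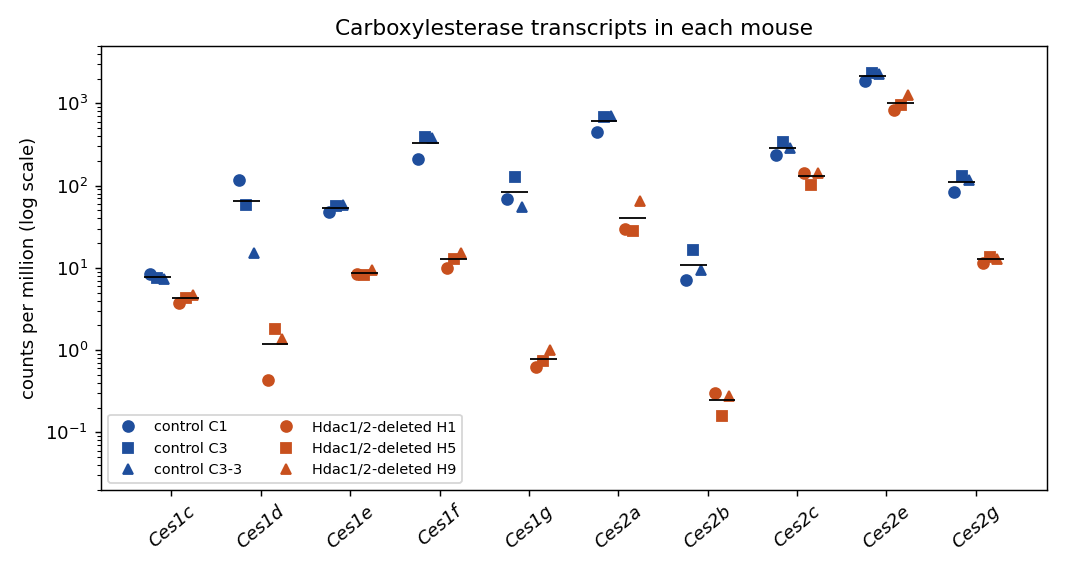
Level of each of the 10 carboxylesterase transcripts in each mouse, in CPM on a log axis, with controls in blue, Hdac1/2-deleted mice in orange, and a black bar at each group mean (n = 3). Every mutant point lies under the control points of its gene, and the gap is widest for Ces1g (55.6 CPM in the lowest control against 0.991 CPM in the highest mutant) and narrowest for Ces1c, Ces2c and Ces2e.

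Ces1g encodes a lipid-hydrolysing esterase of liver and intestine. It measured 68.5 CPM in C1, 126.5 CPM in C3 and 55.6 CPM in C3-3, and 0.621 CPM in H1, 0.737 CPM in H5 and 0.991 CPM in H9. C3 was the highest control, and the mutants held only 28 to 61 counts each. Its log2 fold change, mutant over control, was -6.73 ± 0.40 (SE, n = 3 against 3), the largest of the 10, and lay between -6.95 and -6.30 with any 1 mouse left out.

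Ces1f, a triacylglycerol hydrolase in liver, was the most abundant Ces1 transcript of the control jejunum. It measured 211 CPM in C1, 393 CPM in C3 and 380 CPM in C3-3, and 9.88 CPM in H1, 12.7 CPM in H5 and 15.4 CPM in H9. C1 was the low control and H1 the low mutant, and the groups were far apart. The log2 fold change was -4.70 ± 0.30.

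Ces1e is also known as egasyn, the esterase that binds beta-glucuronidase and holds it in the ER. Its levels were the most even of the strongly lowered members: 47.8, 56.0 and 57.9 CPM in C1, C3 and C3-3 and 8.31, 8.24 and 9.31 CPM in H1, H5 and H9. Its log2 fold change of -2.64 ± 0.15 had the smallest standard error of the 10. Gusb, the beta-glucuronidase that egasyn binds, went the other way, from 15.6, 22.9 and 17.6 CPM in controls to 65.4, 69.4 and 50.6 CPM in mutants (log2 fold change 1.72 ± 0.19, adjusted p = 1.9e-04).

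Ces1d, the triacylglycerol hydrolase that mobilises stored lipid for lipoprotein assembly in liver and for lipolysis in fat, was the most variable member. It was 118.5 CPM in C1, 58.9 CPM in C3 and 15.2 CPM in C3-3, and 0.432 CPM in H1, 1.82 CPM in H5 and 1.35 CPM in H9. The highest control was 7.80 times the lowest, a spread above that of 98.9% of the 11922 genes with a mean of at least 1 CPM in controls, whose median spread was 1.33 times. The log2 fold change was -5.79 ± 1.03 and ran from -6.25 to -4.98 with 1 mouse left out. The summed level of stromal markers was uneven over the same controls. The 6 markers of stroma and vessel summed to 33.0 CPM in C1, 30.2 CPM in C3 and 3.57 CPM in C3-3, and to 3.13 to 7.64 CPM in mutants. Of these, the muscle genes Acta2 and Des were called lower. Col1a1 (-0.14), Col3a1 (-0.60) and Pecam1 (0.56) were not called, and Pdgfra was not tested. Pecam1, the vessel marker, was even over the controls, at 1.12 CPM in C1, 1.35 CPM in C3 and 1.30 CPM in C3-3. Acta2 was 12.5, 11.1 and 0.602 CPM in C1, C3 and C3-3 and at most 0.0975 CPM in mutants, and Des was 13.3, 14.1 and 0.658 CPM in those controls and 0.0813 to 0.210 CPM in mutants, so that C3-3 was the lowest control and lay above every mutant for both, as for Ces1d. Their part in the Ces1d values was not tested. Of the 5 adipocyte markers only Cidec was found by symbol in the deposited table. It was 95.25 to 130.8 CPM in controls and 62.74 to 82.75 CPM in mutants, and was not called (-0.58).

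Ces1c, the plasma carboxylesterase, was the member that was not called. It measured 8.51 CPM in C1, 7.58 CPM in C3 and 7.26 CPM in C3-3, and 3.77 CPM in H1, 4.32 CPM in H5 and 4.65 CPM in H9. Its groups did not overlap, but its log2 fold change of -0.88 ± 0.21 stayed short of the 2-fold limit. It stands outside the limit by a small margin, and Ces2e (-1.10) and Ces2c (-1.15) stand inside it by as little.

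Ces2a, which hydrolyses acylglycerols in liver and intestine, lost the most among the abundant Ces2 transcripts. It was 455 CPM in C1, 684 CPM in C3 and 712 CPM in C3-3, and 29.7 CPM in H1, 28.1 CPM in H5 and 64.7 CPM in H9. H9 was the high mutant, 2.30 times above H5, and still lay far under the lowest control. The log2 fold change was -3.92 ± 0.38, between -4.41 and -3.70 with 1 mouse left out. Ranked by mean CPM among all genes in the table, Ces2a went from place 236 in controls to place 4154 in mutants.

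Ces2g was 82.7 CPM in C1, 130.3 CPM in C3 and 117 CPM in C3-3, and 11.6 CPM in H1, 13.6 CPM in H5 and 12.8 CPM in H9. The 3 mutants differed by at most 1.18 times, and the log2 fold change was -3.12 ± 0.19. Ces2b was the rarest member in mutants, at 7.06, 16.4 and 9.37 CPM in C1, C3 and C3-3 and 0.297, 0.158 and 0.276 CPM in H1, H5 and H9. With 22, 6 and 17 counts in the mutants, its log2 fold change of -5.43 ± 0.43 rests on few reads.

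Ces2e and Ces2c were only 2.14 and 2.22 times lower in mutants by their means. Ces2e was 1873 CPM in C1, 2330 CPM in C3 and 2282 CPM in C3-3, and 826 CPM in H1, 959 CPM in H5 and 1251 CPM in H9, with a log2 fold change of -1.10 ± 0.20. Ces2c, an acylglycerol hydrolase of intestine and liver, was 236, 340 and 288 CPM in C1, C3 and C3-3 and 143, 102 and 144 CPM in H1, H5 and H9, with a log2 fold change of -1.15 ± 0.19. Both sit at the limit of a call. Without H1, Ces2e had a log2 fold change of -0.97, and without H5, Ces2c fell just short of 2-fold. Scaled to library totals alone, which moves the median log2 fold change of all genes from -0.01 to 0.18, they were at -0.91 and -0.95 and were not called, while the other 7 called members remained called.

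**Figure D2:**
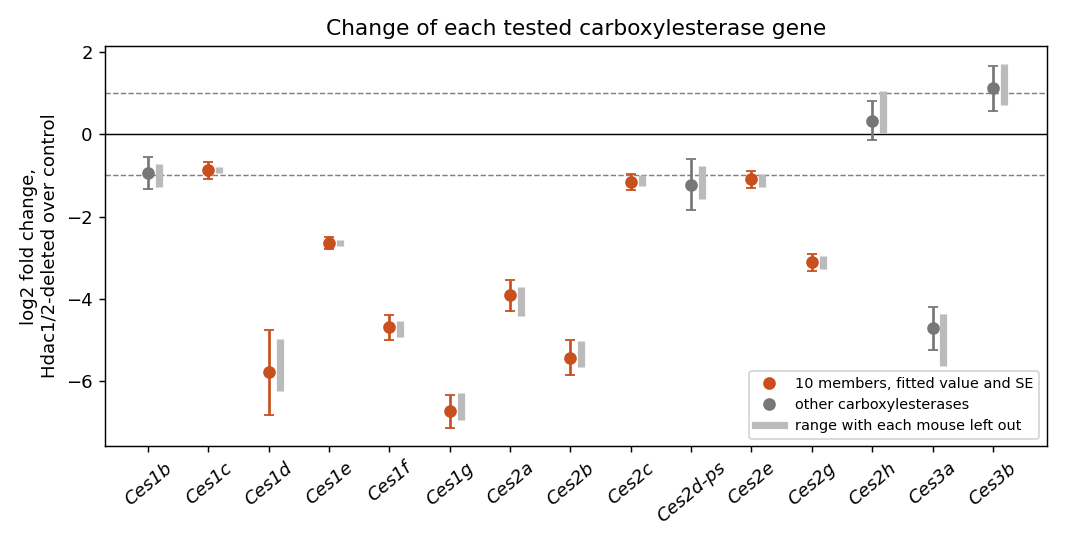
Log2 fold change, Hdac1/2-deleted over control, of the 15 carboxylesterase genes tested, with points and bars for the fitted value and its standard error and grey bars for the range when each of the 6 mice is left out. Ces1g, Ces1d, Ces2b and Ces1f lie lowest among the 10 members (orange), Ces1c, Ces2c and Ces2e lie near the dashed 2-fold line, and of the other carboxylesterases (grey) Ces3a alone lies far under it.

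The members also differed in how much of the pool they made up. Per length, as CPM divided by the length of the union of annotated exons in kilobases (RPKM), Ces2e led the controls at 801 ± 93.2 RPKM, followed by Ces2a at 262 ± 59.8, Ces2c at 125 ± 22.6 and Ces1f at 99.8 ± 30.8 (SD, n = 3). Ces1g at 35.0 ± 15.8, Ces2g at 30.7 ± 6.87, Ces1d at 27.1 ± 21.9 and Ces1e at 24.6 ± 2.46 followed, and these 4 could not be ordered beyond their spread. Ces1c at 3.35 ± 0.280 and Ces2b at 3.21 ± 1.43 were the lowest and could not be ordered either, and the ranges of Ces2c and Ces1f over the controls overlapped. In mutants Ces2e was at 375 ± 80.6 RPKM, Ces2c at 56.5 ± 10.4 and Ces2a at 17.3 ± 8.77, and the other 7 were at 3.94 RPKM or less. With the length of the longest transcript in place of the exon union, 4 members changed rank in controls: Ces1f rose to 170.3 ± 52.5 RPKM, above Ces2c at 146.0 ± 26.4, and Ces2g to 38.4 ± 8.58, above Ces1g at 35.0. The shares below use the exon union, and a shorter length for Ces1f would raise its share.

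Of the summed RPKM of the 10, Ces2e thus made up 56.9 ± 1.81% in controls and 80.9 ± 2.81% in mutants (SD, n = 3 each). The share of Ces2c was 8.84 ± 0.514% and 12.4 ± 2.97%, that of Ces2a 18.4 ± 2.03% and 3.60 ± 1.07%, and that of Ces1f 6.95 ± 1.31% and 0.831 ± 0.0713%. Within a mouse, Ces2e had 3.20 to 4.12 times the CPM of Ces2a in controls and 19.3 to 34.1 times in mutants. The CPM ratio of Ces2e to Ces2c overlapped between groups, at 6.86 to 7.95 in controls and 5.77 to 9.40 in mutants. These ratios do not depend on the scaling of the libraries. Without Ces2e, the other 9 genes summed to 1563 ± 296 CPM in controls and 211 ± 41.0 CPM in mutants, a ratio of 7.41.

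**Figure D3:**
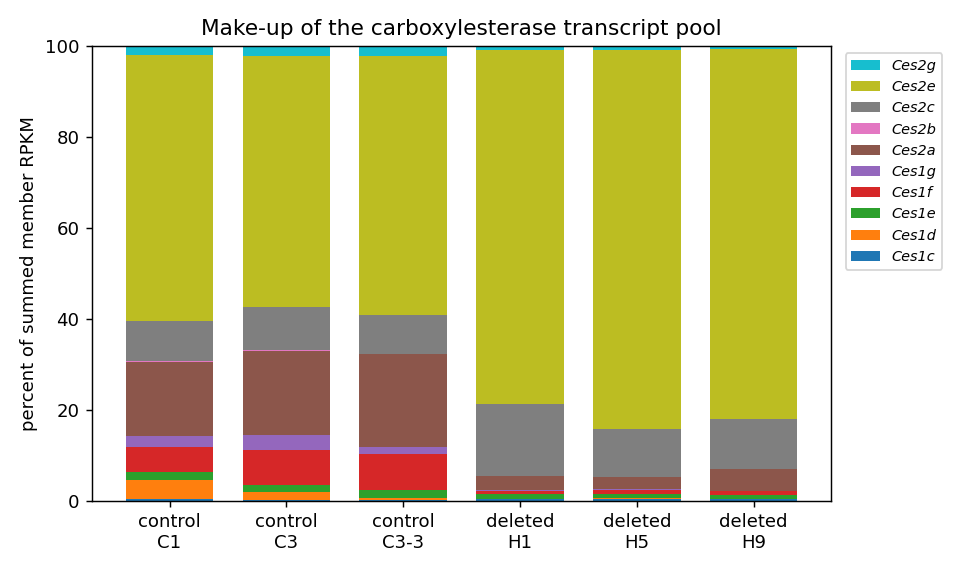
Share of each carboxylesterase in the summed RPKM of the 10 genes, in percent, for each of the 6 mice. The Ces2e block grows from 55.0% to 58.7% in the 3 controls to 77.8% to 83.4% in the 3 mutants, while the Ces2a and Ces1f blocks shrink.

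The 6 other carboxylesterases in the table were all rare. Ces3a, a liver triacylglycerol hydrolase, was 3.64, 4.05 and 4.68 CPM in C1, C3 and C3-3 and 0.0810, 0.0789 and 0.292 CPM in H1, H5 and H9. It was called lower with a log2 fold change of -4.72 ± 0.51 (adjusted p = 1.7e-04), though the mutants held only 3 to 18 counts. Its neighbour Ces3b, whose coding sequence is 95.3% identical to that of Ces3a, was at 1.12 ± 0.54 (adjusted p = 0.13). Ces1b (-0.95 ± 0.39, adjusted p = 0.083), Ces2d-ps (-1.22 ± 0.62, adjusted p = 0.15) and Ces2h (0.33 ± 0.48, adjusted p = 0.61) were not called, and Ces2f was too low to be tested. Ces1a, Ces1h, Ces4a and Ces5a were not found by symbol in the deposited table and so have no level here.

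Most tested genes on either side of the arrays were not called, and those called went in both directions. Of the 20 nearest protein-coding neighbours, 5 on each side of each array, 16 were tested, and 1 was called lower and 3 higher. Among all genes tested, 12.7% were called lower and 12.4% higher. The median log2 fold change of the 16 was -0.06. The one called lower was Bbs2, a ciliary gene on the far side of the Ces1 array (-1.08 ± 0.23, adjusted p = 0.0053). Those called higher were Lpcat2 (1.63 ± 0.39, adjusted p = 0.0094), B3gnt9 (1.82 ± 0.39, adjusted p = 0.0054) and the carbonic anhydrase gene Car7 (3.76 ± 0.74, adjusted p = 0.0063). They were rare in controls, at no more than 0.468, 0.677 and 0.918 CPM in that order. Car7 was uneven in mutants, at 3.79 CPM in H1, 25.0 CPM in H5 and 6.37 CPM in H9. Its log2 fold change ran from 2.56 to 4.19 with 1 mouse left out. B3gnt9 overlaps D230025D16Rik on the other strand, and whether strand was used in counting is not given in the sources used here. The nearest tested neighbour of the Ces2 array, Cbfb, 20565 bases beyond its end, was at -0.16 ± 0.20.

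**Figure D4:**
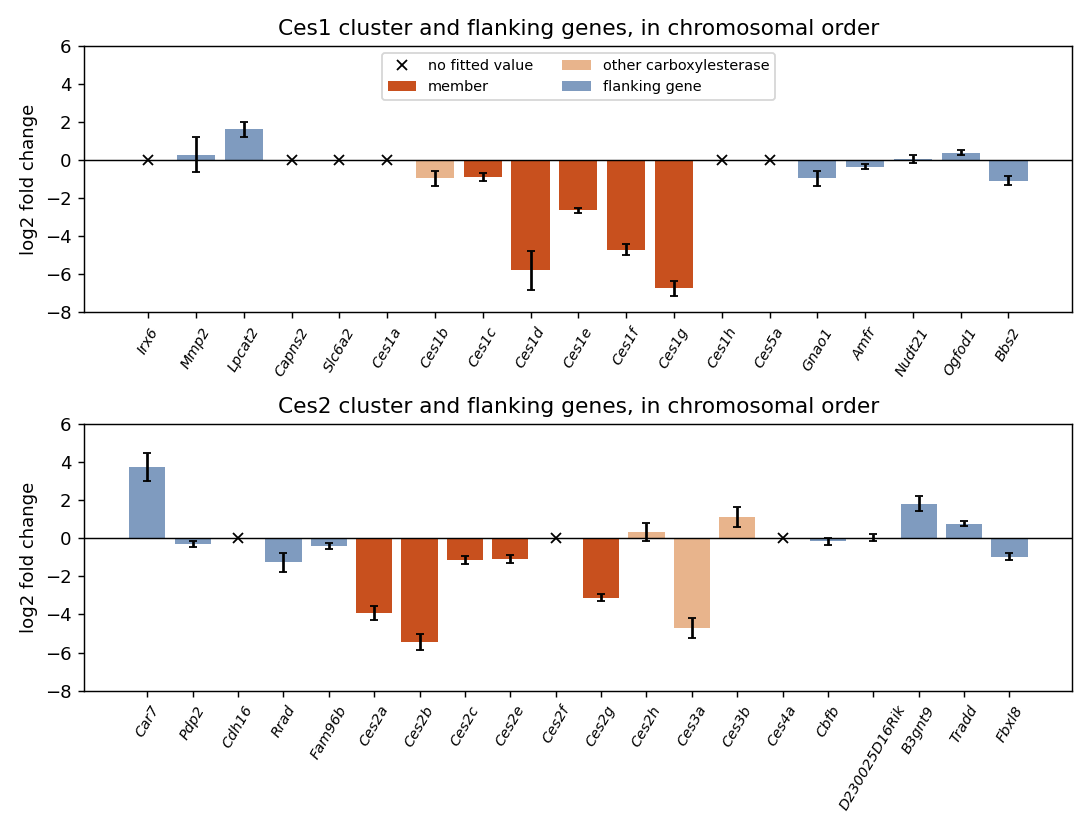
Log2 fold change with standard error of the genes of the Ces1 array (top) and the Ces2 array (bottom) and of 5 protein-coding neighbours on each side, in chromosomal order and not to distance, with crosses for genes without a fitted value. The members (orange) form a run of negative bars from Ces1c to Ces1g and from Ces2a to Ces2g, broken by Ces2f, which was not tested, whereas the flanking genes (blue) scatter around 0 from -1.26 to 3.76.

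Promoter sequence was at hand for 7 of the 10 members in RefSeq (GRCm38.p6), all but Ces1d, Ces1f and Ces2b, as the 250 bases before each annotated start site. Those of Ces2a (chr8:104733753-104734002), Ces2e (chr8:104926010-104926259) and Ces2g (chr8:104961468-104961717), all on the plus strand, are shown because these genes lie in one array and yet differed in their loss.
Ces2a: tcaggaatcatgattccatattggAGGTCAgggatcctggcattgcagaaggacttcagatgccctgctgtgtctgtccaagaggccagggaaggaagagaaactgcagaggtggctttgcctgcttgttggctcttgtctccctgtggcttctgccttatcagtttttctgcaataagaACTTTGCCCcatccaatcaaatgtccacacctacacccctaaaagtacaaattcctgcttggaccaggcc
Ces2e: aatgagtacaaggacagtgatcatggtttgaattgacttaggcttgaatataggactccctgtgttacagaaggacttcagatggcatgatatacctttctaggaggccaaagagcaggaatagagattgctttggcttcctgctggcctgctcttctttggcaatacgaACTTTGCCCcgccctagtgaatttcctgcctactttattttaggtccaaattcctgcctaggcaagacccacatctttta
Ces2g: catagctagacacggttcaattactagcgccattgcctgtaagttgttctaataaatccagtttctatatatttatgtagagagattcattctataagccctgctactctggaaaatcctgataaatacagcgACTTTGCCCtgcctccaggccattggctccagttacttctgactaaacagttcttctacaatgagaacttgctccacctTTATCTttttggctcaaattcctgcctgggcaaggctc
A run of 9 letters, ACTTTGCCC, stood in all 3, beginning at position -70 in Ces2a, -80 in Ces2e and -117 in Ces2g, and is in capitals. It was also in the window of Ces2f, at position -92, and not in that of Ces2c. The run was picked after reading the promoters, and 0.222% of 32851 promoters of this length hold it on either strand. It was thus present in Ces2e, 2.14 times lower in mutants, and in Ces2a and Ces2g, 15.1 and 8.67 times lower. The other capitals mark a nuclear receptor half-site, AGGTCA, in Ces2a (position -226) and a GATA site, AGATAA read on the opposite strand, in Ces2g (position -38).

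The promoter of Ces1g (chr8:93337210-93337459, minus strand) is shown as that of the member with the largest change.
Ces1g: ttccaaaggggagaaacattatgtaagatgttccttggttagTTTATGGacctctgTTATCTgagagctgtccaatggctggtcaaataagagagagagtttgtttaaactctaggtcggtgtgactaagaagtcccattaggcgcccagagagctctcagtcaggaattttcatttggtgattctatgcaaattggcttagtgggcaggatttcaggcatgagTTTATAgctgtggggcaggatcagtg
Its capitals mark, in order, a CDX site (CCATAAA) at position -208, a GATA site (AGATAA) at position -194 and a TATA box (TATAAA) at position -26, all on the opposite strand. The GATA letters were in 3 of the 7 member promoters and in 9.99% of all promoters, the half-site in 1 of 7 and 14.0%, the CDX letters in 1 of 7 and 2.43%, and the TATA letters in 1 of 7 and 12.4%. The letters CAAAGTCCA of an HNF4 site were in 0 of 7 and 0.384% of all, and 2 AGGTCA half-sites spaced by 1 or by 4 bases in 0 of 7 and 0.0335% and 0.0152% of all. Both strands were searched for exact letters only, so near matches were not counted. Read on the opposite strand, the shared run of Ces2a, Ces2e and Ces2g ends in CAAAGT, the letters with which the searched HNF4 string begins. The 0 of 7 thus holds for the full string and not for sites like it. These are matches of letters and not bound sites, and binding of HNF4 was not tested.

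Of 15 transcription factor genes that are known to regulate carboxylesterases or to act in enterocytes, 2 were called lower and 0 higher. Over all genes tested, 12.7% were called lower and 12.4% higher. The median log2 fold change of the 15 was -0.38. Nr1i3, the xenobiotic receptor CAR, was 57.2, 71.8 and 67.3 CPM in controls and 31.9, 22.5 and 24.3 CPM in mutants (log2 fold change -1.32 ± 0.17, adjusted p = 4.5e-04). Nr3c1, the glucocorticoid receptor, was 110 to 118 CPM in controls and 41.5 to 55.5 CPM in mutants (-1.17 ± 0.15, adjusted p = 3.9e-04). Nr1i2, the pregnane X receptor, was at -0.75 ± 0.23 (adjusted p = 0.026) and Hnf4g at -0.88 ± 0.25 (adjusted p = 0.023), both short of 2-fold. Hnf4a (-0.30), Rxra (-0.16), Ppara (-0.38), Nr1h2 (-0.45), Nr1h3 (-0.39), Nfe2l2 (-0.42), Gata4 (-0.08) and Ahr (-0.07) were at smaller negative values and not called. At positive values, Nr1h4, the bile acid receptor FXR, was at 0.86 ± 0.19 (adjusted p = 0.0060) and Cebpa at 0.65 ± 0.16 (adjusted p = 0.0099), both also short of 2-fold. Cdx2 (0.41, adjusted p = 0.081) was not called either.

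Other enzymes that hydrolyse drugs and related compounds were called in both directions. Of 15 tested hydrolases of esters, lactones, epoxides and, for Gusb, glucuronides, 6 were called lower and 2 higher, against 12.7% and 12.4% of all genes tested. Their median log2 fold change was -0.91. The microsomal epoxide hydrolase Ephx1 had the largest loss, from 14.3, 47.3 and 34.2 CPM in controls to 2.89, 2.97 and 2.65 CPM in mutants (-3.49 ± 0.42, adjusted p = 5.0e-04). Aadac, a deacetylase of the ER membrane (-1.98 ± 0.40, adjusted p = 0.0070), Ephx2, the soluble epoxide hydrolase (-1.93 ± 0.19, adjusted p = 1.0e-04), the lactonase gene Pon3 (-1.64 ± 0.33, adjusted p = 0.0056), Cmbl (-1.49 ± 0.18, adjusted p = 3.4e-04) and the sialic acid esterase gene Siae (-1.14 ± 0.18, adjusted p = 0.0012) were the others. Higher with Gusb was Ache, acetylcholinesterase, which went from 0.658 to 1.16 CPM in controls to 23.1 to 49.9 CPM in mutants (5.38 ± 0.36, adjusted p = 2.1e-05).

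Lipid ester hydrolases also had calls in both directions. Of 14 tested, 3 were called lower and 2 higher, against 12.7% and 12.4% of all genes tested. Their median log2 fold change was -0.11. Called lower were Pnliprp2, a pancreatic lipase relative (-4.00 ± 0.25, adjusted p = 1.1e-05), Abhd5, the activator of adipose triglyceride lipase (-2.41 ± 0.21, adjusted p = 5.9e-05), and the monoacylglycerol lipase gene Abhd6 (-1.05 ± 0.18, adjusted p = 0.0020). Called higher were hepatic lipase, Lipc, which stayed at 2.66 CPM or less (2.47 ± 0.41, adjusted p = 0.0015), and endothelial lipase, Lipg (1.39 ± 0.30, adjusted p = 0.0055). Of the KDEL receptor genes, which return ER proteins such as the carboxylesterases, Kdelr3 was called lower (-1.30 ± 0.25, adjusted p = 0.0029), whereas the more abundant Kdelr1 (-0.56 ± 0.18, adjusted p = 0.033) and Kdelr2 (-0.26 ± 0.14, adjusted p = 0.18) were not called.

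The tested genes most like 2 of the members over the 6 mice were found by the root mean square distance between log2 CPM profiles, each centred on its own mean. For Ces1g these were Zfp503 (distance 0.409), Pcdh19 (0.422), the pantetheinase gene Vnn1 (0.479), the cytochrome P450 gene Cyp2b10 (0.511) and Ltc4s (0.641). Of these Cyp2b10 was the most abundant, at 917 ± 263 CPM in controls and 5.06 ± 1.60 CPM in mutants (SD, n = 3 each). In mutants Zfp503 averaged 0.0196 CPM, below the level of 3 counts in a library, and Pcdh19 averaged 0.0894 CPM, near it. For Ces2e, the member with the highest RPKM, they were Pdzk1 (0.0397), Abhd6 (0.0669), Polr2a (0.0807), Pepd (0.0825) and Cd1d1 (0.0930). Pdzk1, which encodes a scaffold protein of the brush border, was 585 ± 80.1 CPM in controls and 272 ± 67.3 CPM in mutants. Cd1d1 was rare, with means of 0.535 CPM in controls and 0.25 CPM in mutants.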

How the data were processed

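Jejunal IEC were enriched by EDTA, and RNA with an integrity number above a set minimum was poly(A)-selected and sequenced as directional paired-end libraries. The authors aligned the reads with STAR (2.4.0f1 in the submitters' processing notes, which name mm9, whereas the study's methods name GRCm38) and deposited raw counts of reads per gene. The counter and its annotation are not given in the sources used here. The deposited score columns (counts multiplied by 1 factor per sample and rounded) and the authors' own fold changes and p-values were not used. No gene has fewer than 10 counts over the 6 libraries.

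Counts were fitted with edgeR 4.0.16 (R 4.3.3): filterByExpr, which kept 15618 genes, TMM factors of 0.892 to 1.14, a robust quasi-likelihood fit without covariates (prior count 0.125), and Benjamini-Hochberg adjustment over all genes tested. The standard error is the log2 fold change divided by the square root of F. The fit was tested on simulated data. RPKM was computed from these counts and the union of exons in GENCODE M21, which matched 19532 of the 19616 genes. The counts carry counting error, and 3 counts in a library came to 0.0405 to 0.0790 CPM. Mice are separate animals, but the labels name no litter or batch. Coding sequences were aligned globally with Biopython 1.88 and figures drawn with matplotlib 3.10.9. Alternatives used limma 3.58.1, DESeq2 1.42.0, other scalings and filters, and each mouse left out.

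The 10 members, the gene lists and the tests were chosen with earlier results of these data known. Text names all members, all other carboxylesterases in the table, the regulators but 1 that is not reported here, called genes of the hydrolase and ER lists, called flanking genes and Cbfb, and the 5 genes nearest in profile to Ces1g and to the member highest by RPKM. The flanking gene Cbfb, the stromal genes named and the shared promoter run were picked after values or sequences were seen.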

Additional observations from a re-analysis of the deposited data

How the results depend on the processing

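Over 129 member log2 fold changes recomputed under other settings, 125 stayed on the same side of the call, 4 (Ces2c and Ces2e, given with their levels) became weaker and 0 changed sign. The number of members called lower was 9 with DESeq2 size factors, the DESeq2 test, limma voom, no filter on low counts, and an adjusted p limit of 0.01, and 7 with library totals only. It was 8 with at least 10 counts required in every mouse, where Ces2b could not be tested, and between 8 and 9 with each mouse left out. Without a fold limit all 10 passed, while over all genes 3168 were then called lower and 3198 higher, against 1989 and 1944 with it. Library totals only gave 1538 lower and 2463 higher, so that 61.6% of calls were higher in place of 49.4%. The summed level of the 10 had a control to mutant ratio of 2.67 on library totals in place of 3.05. Leaving out control C3, the library with Y-linked transcripts, kept 9 members called lower. No paired analysis was possible because the labels give no pairing of control and mutant mice. Depth limits Ces2b and Ces3a, with 6 to 22 and 3 to 18 counts in the mutants, and Ces2f, with 3 to 7, was too low to be tested.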

Other observations

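The uneven level of Ces1d among control mice was set beside that of other transcripts after its values were seen. With 3 values per gene and 11922 genes of at least 1 CPM, close matches can be found for most profiles, so the matches are only listed. By the distance of centred log2 CPM over the 3 controls alone, the tested genes nearest to Ces1d were Cald1, Serpinh1, Col3a1 and Sparc, which are genes of contractile cells and extracellular matrix. Col3a1 was 3.38 CPM in C1, 1.87 CPM in C3 and 0.508 CPM in C3-3, and Cald1 was 4.27, 2.11 and 0.583 CPM. The next nearest was Ddit4, a stress- and glucocorticoid-responsive gene, at 81.2 CPM in C1, 39.3 CPM in C3 and 13.8 CPM in C3-3. In mutants Col3a1 was 0.421 to 2.37 CPM, which overlapped its control range, whereas the muscle genes Acta2 and Des, like Ces1d, did not overlap between groups. With 3 control mice no correlation was computed, and the part of stromal cells in the Ces1d level was not tested.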
